A study of Mus musculus with 18 samples.

Results

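The 10 genes described here are Eph receptors and ephrins, the largest family of receptor tyrosine kinases in mammals and its cell-bound ligands: the EphA receptors Epha1, Epha2 and Epha4, the EphB receptors Ephb2, Ephb3 and Ephb4, the ephrin-A ligands Efna1 and Efna5, and the ephrin-B ligands Efnb1 and Efnb2. They were chosen by name, as the rows of the count table whose Ensembl identifier carries one of these symbols in the annotation of GRCm38. All 10 were found among the 49671 genes of the table, all had counts, and all passed the filter on low counts in both fits. The filter retained 16413 genes in the E14 samples and 14893 genes in the Esrrb line.

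Eph receptors bind ephrins on the surface of a neighbouring cell, so that signals run forward into the cell with the receptor and in reverse into the cell with the ligand. Ephrin-A ligands are held to the membrane by a lipid anchor and bind mainly EphA receptors, whereas ephrin-B ligands span the membrane and bind mainly EphB receptors. Epha4 is an exception that also binds ephrin-B ligands. The family is known for sorting cells, forming tissue boundaries and guiding axons, and in the intestinal crypt Ephb2 and Ephb3 are targets of Wnt/β-catenin signalling.

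The samples were mouse embryonic stem (ES) cells grown as a 3D culture in growth factor-depleted Matrigel and N2B27 medium, with 3 samples in each of 6 groups, after maintenance in 2i/Lif. Wild-type E14 ES cells at passage 20 (strain 12910la in the labels) were cultured for 48 h with DMSO, with 3 µM of the GSK3 inhibitor CHIR99021 (CH), which activates Wnt/β-catenin signalling, with the same dose of CHIR99021 and 0.4 µM of the MEK inhibitor PD0325901 (2i), or with Activin A at 20 ng/ml together with Fgf2 at 12 ng/ml (Fgf2/Activin). Esrrb fl/fl ES cells with a tamoxifen-inducible Cre, at passage 25 and labelled as from Acr-EGFP transgenic mice, were exposed to 4OHT for 1 day (Esrrb null) or left without it (Esrrb floxed) and then cultured for 24 h with 3 µM CHIR99021. Both arms of the Esrrb line therefore contained CHIR99021 and carried the floxed alleles and Cre, and 4OHT exposure and loss of Esrrb cannot be told apart. The study asked which genes Wnt/β-catenin signalling and Esrrb control while ES cells acquire, or fail to acquire, epithelial polarity.

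Poly(A) RNA was sequenced to 25388139 to 37158661 counted reads per sample in E14 cells and 19915222 to 20140699 in the Esrrb line. Levels are given as CPM, the count of a gene relative to the TMM-scaled total of its library, and as CPM per kb of exon where genes are compared with each other. A gene is called higher or lower where edgeR's quasi-likelihood test gave a P value under 0.01 after Benjamini-Hochberg adjustment over all genes tested and the absolute log2 fold change was above 1. The test did not pair samples by replicate number. Replicate 1 stood apart in every group: its counts differed from those of replicates 2 and 3 by a chi-square of 10.8 to 59.7 per gene, beside 1.42 to 7.84 between replicates 2 and 3. Calls that change when replicate 1 of every group is left out are named with the result. Esrrb had 1211, 1333 and 1250 counts in the Esrrb null samples and 2680, 2146 and 2109 in the Esrrb floxed samples, so that transcripts of the gene were fewer in the null samples but still counted. At 58.1 to 62.7 CPM, the null samples were above DMSO (6.88 to 30.3 CPM) and Fgf2/Activin (9.22 to 21.5 CPM) of E14 cells. The floxed samples, at 110 to 144 CPM, were below CH (286 to 363 CPM) and 2i (530 to 566 CPM). Cell line, passage and culture time differ between these sets. The 6 pluripotency markers were detected in every group, with summed levels that differed. Per sample these were 1797 to 1849 CPM in DMSO, 2366 to 2908 in CH, 3418 to 3591 in 2i and 2172 to 2278 in Fgf2/Activin. They were 3193 to 3311 CPM in Esrrb floxed and 1814 to 2048 CPM in Esrrb null samples. Sox2, Dppa5a and Zfp42 were called higher and Utf1 lower in CH against DMSO and in 2i against Fgf2/Activin. Dppa5a was called higher in Fgf2/Activin against DMSO, and Sox2 lower in Esrrb null cells. The mesendoderm list, led by Eomes in DMSO and Fgf2/Activin and by T in the other groups, summed to 461 to 692 CPM in CH, 86.3 to 119 CPM in 2i, 8.89 to 13.8 CPM in DMSO, 11.6 to 17.8 CPM in Fgf2/Activin, 432 to 553 CPM in Esrrb null and 80.4 to 101 CPM in Esrrb floxed samples. In these bulk samples, fewer expressing cells and less RNA per cell cannot be told apart.

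Epha4 and Efnb1 had the largest rises of the 10 genes in CH and Efnb2 was the one called lower, so the 250 bases before their RefSeq transcription start are shown (build GRCm38.p6, 5′ to 3′ on the strand of the gene). Capitals mark CCAAT, or ATTGG where it lies on the other strand, a common promoter element.
Epha4, chr1:77515089-77515338, minus strand: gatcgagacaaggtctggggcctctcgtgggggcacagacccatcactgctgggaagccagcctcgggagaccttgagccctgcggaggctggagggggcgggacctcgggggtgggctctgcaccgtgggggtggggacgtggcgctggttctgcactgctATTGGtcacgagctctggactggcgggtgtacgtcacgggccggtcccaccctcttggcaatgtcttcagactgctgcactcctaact
Efnb1, chrX:99135811-99136060, plus strand: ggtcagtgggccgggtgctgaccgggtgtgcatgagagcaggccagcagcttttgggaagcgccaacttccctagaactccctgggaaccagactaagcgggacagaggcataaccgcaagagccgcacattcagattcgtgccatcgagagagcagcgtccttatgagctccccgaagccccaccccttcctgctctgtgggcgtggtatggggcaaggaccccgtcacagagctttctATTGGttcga
Efnb2, chr8:8661243-8661492, minus strand: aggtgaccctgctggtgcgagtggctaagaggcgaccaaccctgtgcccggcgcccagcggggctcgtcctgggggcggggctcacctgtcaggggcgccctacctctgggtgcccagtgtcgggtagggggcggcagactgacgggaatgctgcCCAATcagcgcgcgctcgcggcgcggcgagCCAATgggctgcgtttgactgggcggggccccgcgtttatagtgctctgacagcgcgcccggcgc

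The GC content of these windows was 66.0% for Epha4, 60.0% for Efnb1 and 72.0% for Efnb2. All 10 genes had at least one such window and Efna1 had 2, which gave 11 windows. Both strands were searched for CTTTGAT, a variant of the core bound by TCF/LEF factors, and for AAGGTCA, the element bound by Esrrb. Neither exact string was found in any of the 11 windows. In windows of the same length before all RefSeq starts the shares were 3.21% and 4.08% of 32817. Other variants of either element, such as the CTTTGAA in the window of Epha2, were not searched for. CCAAT, searched after the sequences were seen, was found in 5 of the 11 windows and in 33.8% of all windows. These matches describe letters in a window and say nothing of binding.

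In CH, 3 of the 10 genes were called higher than in DMSO, namely Epha2, Epha4 and Efnb1, and Efnb2 was called lower. Of all genes tested, 7.51% were called higher and 10.2% lower in this comparison, 17.7% in all. Between 2i and Fgf2/Activin, Epha4 and Efnb1 were called higher in 2i, and Ephb2, Efna5 and Efnb2 lower, where 9.13% of all genes were called higher and 14.4% lower, 23.5% in all. Between 2i and CH, Epha1 and Ephb2 were called lower and none higher, where 1.67% of all genes were called lower and 0.317% higher, 1.99% in all. No member had an unadjusted P value under 0.05 with a higher level in 2i than in CH, and DESeq2 called none higher. Fgf2/Activin differed from DMSO in Epha2, which was called higher, as were 0.902% of all genes, while 0.347% were called lower, 1.25% in all. Of the 10, 2 were lower in Fgf2/Activin at an unadjusted P value under 0.05, and DESeq2 called 1 of them, Ephb2, lower. In Esrrb null cells Ephb2, Efna1, Efna5 and Efnb1 were called higher than in Esrrb floxed cells, as were 12.8% of all genes, and none of the 10 was called lower, as were 3.87% of all genes, with 16.7% called in all. At an unadjusted P value under 0.05, 2 of the 10 were lower, and DESeq2 called none of them lower. The median absolute log2 fold change of the 10 genes was 1.24 between CH and DMSO, beside 0.42 over all genes tested, and 1.14 beside 0.50 between 2i and Fgf2/Activin. It was 0.62 beside 0.19 between 2i and CH, 0.57 beside 0.18 between Fgf2/Activin and DMSO, and 0.82 beside 0.37 in the Esrrb line. The 10 genes were chosen with earlier results of these data known, so these medians and shares are descriptions and not a test. Each of the 4 E14 groups entered 2 of the comparisons, which are therefore not independent of each other.

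**Figure D1:**
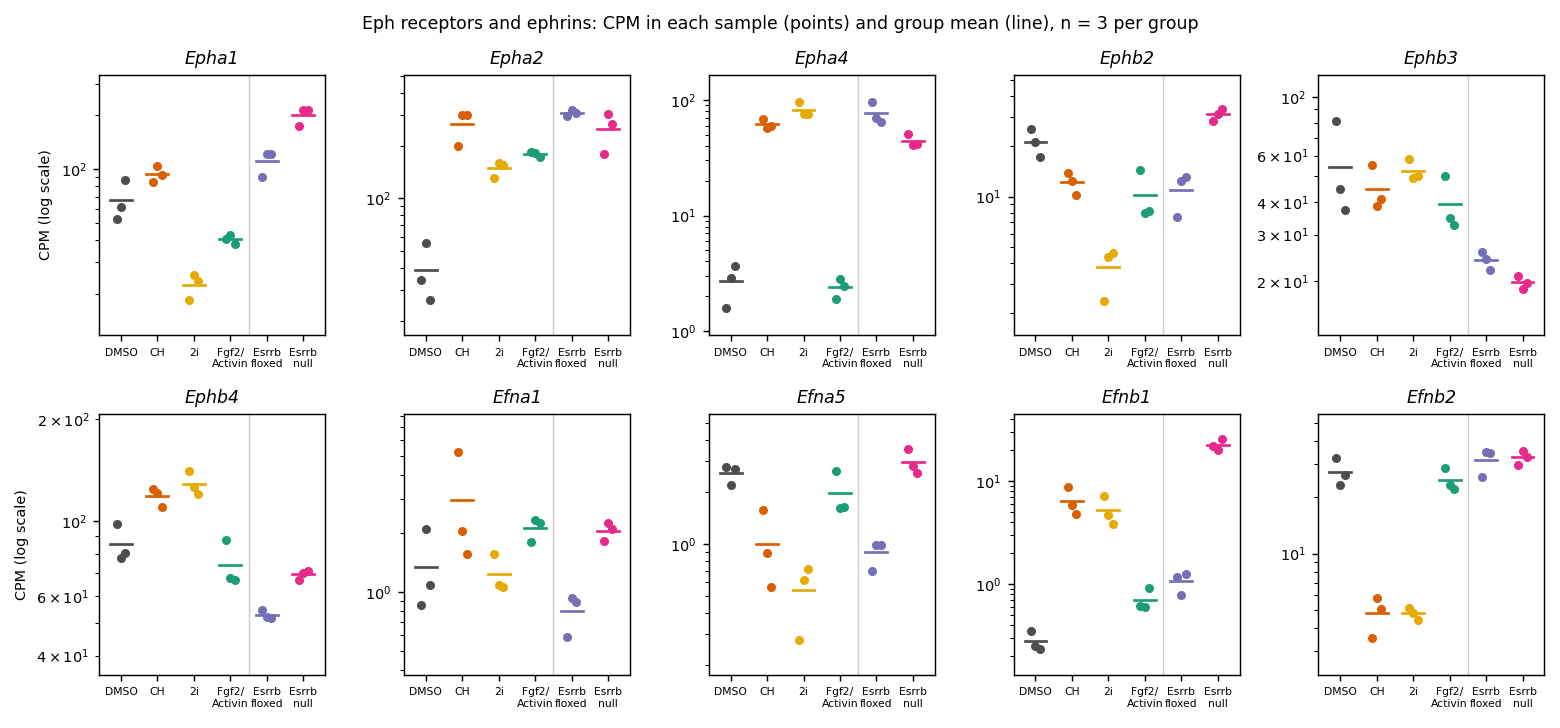
CPM of each of the 10 genes (y axes, log scale) in the 6 groups (x axes), with a point for each of the 3 samples and a line at the group mean; the grey line separates the E14 cultures at 48 h from the Esrrb line at 24 h. Epha4 sat between 57.5 and 96.3 CPM in CH and 2i and between 1.58 and 3.67 CPM in DMSO and Fgf2/Activin, and Efnb1 was highest in Esrrb null samples, at 20.0 to 25.6 CPM.

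**Figure D2:**
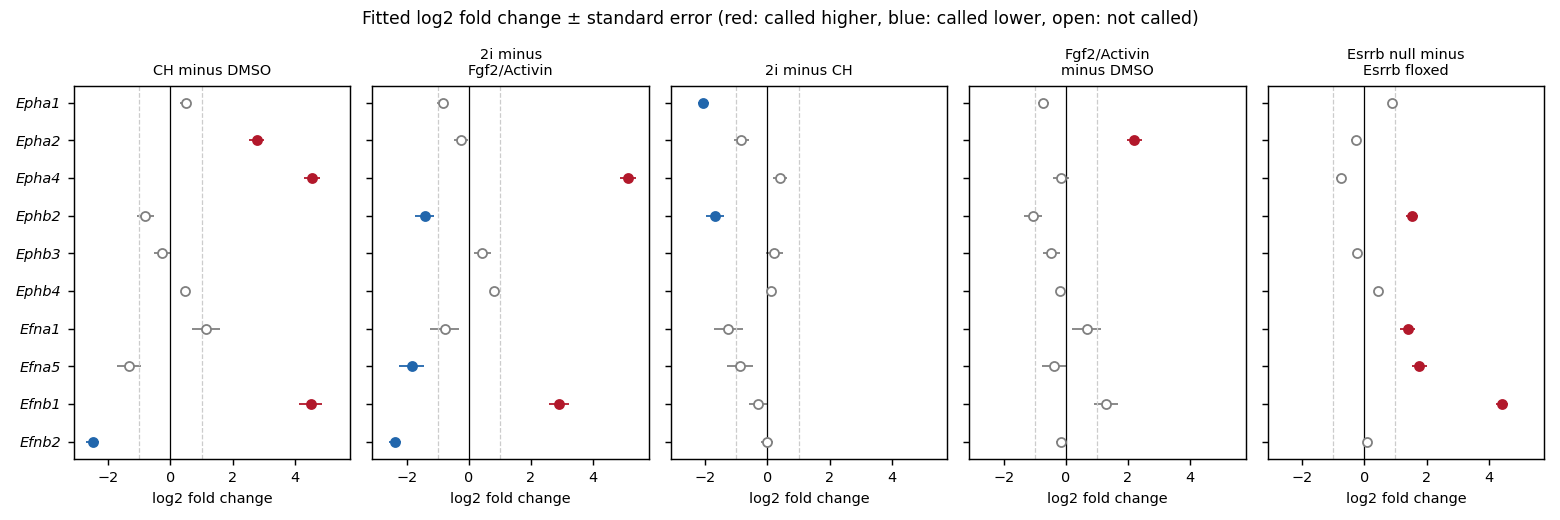
Fitted log2 fold change (x axes) of the 10 genes (y axis) in the 5 comparisons, with bars for the standard error; filled red points were called higher, filled blue points called lower and open points not called, and dashed lines mark a log2 fold change of 1 in either direction. Epha4 and Efnb1 lie far to the right in both comparisons of a CHIR99021 culture with a culture without it, Efnb2 lies to the left in both, and Efnb1 is the point farthest to the right in the Esrrb line.

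Among Epha1, Epha2 and Epha4, Epha4 (chromosome 1, positions 77367185 to 77515088) had the widest range over the groups. It had 69.1, 57.5 and 59.9 CPM in the 3 CH samples and 1.58, 2.85 and 3.67 CPM in the 3 DMSO samples. In 2i its levels were 96.3, 75.6 and 76.1 CPM, and in Fgf2/Activin 1.90, 2.80 and 2.47 CPM. All 6 samples of E14 cells with CHIR99021 were thus above all 6 without it. The log2 fold change was 4.55 ± 0.26 (SE) between CH and DMSO, a 23.4-fold difference (edgeR, adjusted P = 3.75e-07), and 5.12 ± 0.27 between 2i and Fgf2/Activin (edgeR, adjusted P = 1.11e-07). Between 2i and CH it was 0.41 ± 0.22 (edgeR, adjusted P = 0.345), although the samples of both groups did not overlap, and between Fgf2/Activin and DMSO it was -0.16 ± 0.27 (edgeR, adjusted P = 0.844).

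In the Esrrb line, where both arms held CHIR99021, the floxed samples overlapped the CH and 2i cultures of E14 cells and the null samples were below them. The Esrrb floxed samples had 96.8, 69.4 and 64.7 CPM and the Esrrb null samples 50.9, 40.8 and 42.0 CPM. Each null sample was below each floxed sample, and the log2 fold change of -0.75 ± 0.15 passed the P value threshold (edgeR, adjusted P = 0.00267) but not the minimum fold change.

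Epha2 (chromosome 4, positions 141301240 to 141329384), an EphA receptor whose main ligand is Efna1, was the member with the highest level per length in 5 of the 6 groups. It had 34.4, 55.9 and 26.2 CPM in DMSO and 199.5, 297 and 298 CPM in CH. The 2i samples had 131, 159 and 155 CPM, and the Fgf2/Activin samples 183, 181 and 172 CPM. DMSO was therefore the low group, with no sample within the range of another culture. Epha2 rose by a log2 fold change of 2.77 ± 0.25 in CH (edgeR, adjusted P = 8.82e-06) and by 2.20 ± 0.24 in Fgf2/Activin (edgeR, adjusted P = 0.000478), both against DMSO. The second call was lost when only the 6 samples compared were fitted (edgeR, adjusted P = 0.0117). Epha2 was the one member that was called higher both with CHIR99021 and with Fgf2/Activin, and these comparisons share the DMSO samples. Its log2 fold change was -0.26 ± 0.23 between 2i and Fgf2/Activin and -0.84 ± 0.23 between 2i and CH (edgeR, adjusted P = 0.0572). The Esrrb floxed samples had 293, 320.3 and 307 CPM and the Esrrb null samples 178, 304 and 266 CPM, which overlapped, with a log2 fold change of -0.26 ± 0.16 (edgeR, adjusted P = 0.191).

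Epha1 (chromosome 6, positions 42358487 to 42373268), another receptor that binds Efna1, was lowest in 2i. Its levels were 18.6, 25.5 and 23.6 CPM in 2i, 84.8, 104 and 92.1 CPM in CH, 52.6, 61.5 and 87.1 CPM in DMSO, and 40.6, 42.9 and 38.2 CPM in Fgf2/Activin. It fell by 2.06 ± 0.18 on the log2 scale between CH and 2i, the cultures that differ by PD0325901 (edgeR, adjusted P = 0.000173), and the samples of CH and DMSO overlapped. Its log2 fold change of -0.84 ± 0.18 between 2i and Fgf2/Activin passed the P value threshold (edgeR, adjusted P = 0.00212) and not the minimum fold change. In the Esrrb line the null samples had 175, 214 and 213 CPM, all above the floxed samples with 90.6, 121 and 122 CPM. That log2 fold change was 0.89 ± 0.12 (edgeR, adjusted P = 0.000332), also under the minimum.

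Of the 3928 exon bases of Epha1, 236 (6.01%) overlap exons of Zyx, a gene of the opposite strand that encodes the focal adhesion protein zyxin, and the counting did not use strand. Zyx, examined after the values of Epha1 were seen, had a log2 fold change of -1.80 ± 0.23 between 2i and CH (edgeR, adjusted P = 0.00107) and 1.60 ± 0.13 between Esrrb null and floxed cells (edgeR, adjusted P = 1.88e-05). Zyx therefore moved in the direction of Epha1 in both comparisons. The part of reads from the shared stretch in the values of Epha1 was not tested. Of the longest Epha1 transcript, 15.9% matched transcripts of Zyx or 2010010A06Rik over at least 75 bases at 95% identity or more.

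Of Ephb2, Ephb3 and Ephb4, Ephb2 was the one called in any comparison. Ephb4 (chromosome 5, positions 137350109 to 137378669), the receptor of Efnb2 in developing blood vessels, had the highest level per length of its class in all 6 groups, between 11.4 ± 0.33 CPM per kb in Esrrb floxed and 27.8 ± 2.30 CPM per kb in 2i samples (mean ± SD, n = 3). It had 124, 121 and 110.1 CPM in CH and 97.9, 77.8 and 80.3 CPM in DMSO. The 2i samples had 141, 126 and 119.8 CPM and the Fgf2/Activin samples 87.6, 68.0 and 67.1 CPM. Among the E14 cultures, the groups with CHIR99021 lay above those without it, with log2 fold changes of 0.47 ± 0.12 between CH and DMSO (edgeR, adjusted P = 0.00855) and 0.80 ± 0.12 between 2i and Fgf2/Activin (edgeR, adjusted P = 0.000242). In Esrrb null cells Ephb4 was higher by 0.43 ± 0.06 on the log2 scale (edgeR, adjusted P = 0.000218), with 67.0, 70.1 and 71.3 CPM beside 54.5, 52.0 and 51.7 CPM in floxed cells. All 3 differences were under the minimum fold change. Of the exon bases of Ephb4, 0.711% overlap Zan on the other strand.

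Ephb2 (chromosome 4, positions 136647539 to 136835988), a receptor for ephrin-B ligands that also binds Efna5, was lowest in 2i and highest in Esrrb null cells. It had 2.37, 4.33 and 4.62 CPM in 2i, 13.8, 12.5 and 10.2 CPM in CH, 14.4, 7.93 and 8.24 CPM in Fgf2/Activin, and 25.4, 21.2 and 17.3 CPM in DMSO. No 2i sample reached the range of another culture. The log2 fold change was -1.68 ± 0.30 between 2i and CH (edgeR, adjusted P = 0.00615). That call was lost with each of the 6 samples left out in turn, with adjusted P values of 0.0106 to 0.0232, though not without replicate 1 of every group. Between 2i and Fgf2/Activin it was -1.43 ± 0.30 (edgeR, adjusted P = 0.00194), and -0.85 without replicate 1 of every group, under the minimum fold change. Between CH and DMSO it was -0.81 ± 0.28 (edgeR, adjusted P = 0.0392), and between Fgf2/Activin and DMSO -1.06 ± 0.29 (edgeR, adjusted P = 0.0614), which became a call without replicate 1 of every group, at -1.25. The Esrrb null samples had 28.4, 31.1 and 33.6 CPM and the floxed samples 7.56, 12.4 and 13.0 CPM, a log2 fold change of 1.53 ± 0.18 (edgeR, adjusted P = 0.000139). The floxed samples overlapped the CH culture of E14 cells, and the null samples were above all E14 samples. Of the longest Ephb2 transcript, 0.963% matched transcripts of other genes.

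Ephb3 (chromosome 16, positions 21204755 to 21223305), which shares its ephrin-B ligands with Ephb2, was not called in any comparison. It had 81.0, 44.7 and 37.1 CPM in DMSO, 55.1, 38.5 and 41.1 CPM in CH, 58.3, 49.1 and 50.3 CPM in 2i and 50.03, 34.5 and 32.7 CPM in Fgf2/Activin, and these 4 groups overlapped. Its log2 fold changes among them lay between -0.48 ± 0.27 and 0.43 ± 0.27. The Esrrb floxed samples had 25.8, 24.2 and 22.0 CPM and the null samples 20.9, 18.7 and 19.5 CPM, below every E14 sample, with a log2 fold change of -0.25 ± 0.09 between them (edgeR, adjusted P = 0.0395).

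Both ephrin-A members had low levels. Efna1 (chromosome 3, positions 89271733 to 89281142) had group means between 0.803 CPM in Esrrb floxed and 2.95 CPM in CH samples. In CH, replicate 1 had 5.24 CPM and the others 2.06 and 1.56 CPM, beside 0.856, 2.1 and 1.08 CPM in DMSO, so the groups overlapped (log2 fold change 1.14 ± 0.46, edgeR, adjusted P = 0.0648). The 2i samples had 1.57, 1.09 and 1.06 CPM and the Fgf2/Activin samples 1.81, 2.34 and 2.26 CPM, and the log2 fold change of -0.78 ± 0.46 (edgeR, adjusted P = 0.18) became a call at -1.08 without replicate 1 of every group. In Esrrb null cells Efna1 was called higher, with 1.82, 2.26 and 2.11 CPM beside 0.590, 0.932 and 0.886 CPM in floxed cells, a log2 fold change of 1.39 ± 0.24 (edgeR, adjusted P = 0.0011). These levels rest on 38 to 48 counts per null sample and 11 to 18 per floxed sample.

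Efna5 (chromosome 17, positions 62604184 to 62881317), a ligand best known from the retinotectal map, was low in the same E14 cultures as Efnb2. It had 2.78, 2.19 and 2.71 CPM in DMSO, 2.63, 1.61 and 1.63 CPM in Fgf2/Activin, 1.57, 0.882 and 0.560 CPM in CH and 0.279, 0.619 and 0.719 CPM in 2i. All 6 E14 samples with CHIR99021 were below all 6 without it. The log2 fold change between 2i and Fgf2/Activin was -1.84 ± 0.41 (edgeR, adjusted P = 0.00316). That call was lost without 2i replicate 1, without 2i replicate 2 and without Fgf2/Activin replicate 1, with adjusted P values of 0.0103 to 0.0139. Between CH and DMSO it was -1.34 ± 0.39 and not called (edgeR, adjusted P = 0.0174), whereas the fit with the replicate number as a block called it (edgeR, adjusted P = 0.00598), as did the fits without CH replicate 1 and without replicate 1 of every group. Efna5 rose in Esrrb null cells, with 3.55, 2.82 and 2.58 CPM beside 0.697, 0.984 and 0.990 CPM in floxed cells, a log2 fold change of 1.77 ± 0.23 (edgeR, adjusted P = 0.000251). Efnb2 was not called in these cells, and its mean in the floxed samples, where Efna5 was low, was 31.7 CPM.

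The ephrin-B ligands Efnb1 and Efnb2 moved in opposite directions in the E14 cultures. Efnb1 (chromosome X, positions 99136130 to 99148991), a ligand needed for the sorting of cells at boundaries in the skull and palate, had 8.75, 5.91 and 4.76 CPM in CH and 0.348, 0.251 and 0.232 CPM in DMSO. It had 7.17, 4.66 and 3.81 CPM in 2i and 0.604, 0.592 and 0.904 CPM in Fgf2/Activin. The samples with CHIR99021 were all above those without it, and the DMSO samples held 13, 8 and 6 counts. The log2 fold change was 4.51 ± 0.37 between CH and DMSO, or 22.8-fold (edgeR, adjusted P = 4.17e-06), and 2.90 ± 0.33 between 2i and Fgf2/Activin (edgeR, adjusted P = 3.04e-05). Between Fgf2/Activin and DMSO it was 1.30 ± 0.38 (edgeR, adjusted P = 0.0896), and between 2i and CH -0.32 ± 0.29 (edgeR, adjusted P = 0.655).

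Efnb2 (chromosome 8, positions 8617434 to 8661242), the ligand of Ephb4 and a marker of arteries, had 3.54, 5.78 and 5.08 CPM in CH and 32.4, 23.2 and 26.4 CPM in DMSO. The 2i samples had 5.08, 4.84 and 4.44 CPM and the Fgf2/Activin samples 28.8, 23.2 and 22.2 CPM. Efnb2 was therefore low in all 6 E14 samples with CHIR99021. It fell by 2.50 ± 0.20 on the log2 scale between DMSO and CH, a 5.67-fold difference (edgeR, adjusted P = 3.33e-06), and by 2.37 ± 0.20 between Fgf2/Activin and 2i (edgeR, adjusted P = 2.72e-06). Between 2i and CH the log2 fold change was -0.0054 ± 0.19 (edgeR, adjusted P = 0.995), and between Fgf2/Activin and DMSO -0.14 ± 0.18 (edgeR, adjusted P = 0.783).

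In the Esrrb line Efnb1 was called higher in null cells and Efnb2 was not called. Efnb1 had 22.0, 20.0 and 25.6 CPM in Esrrb null and 1.18, 0.777 and 1.25 CPM in Esrrb floxed samples, a log2 fold change of 4.43 ± 0.18, or 21.5-fold (edgeR, adjusted P = 1.31e-06). Efnb2 had 29.8, 35.6 and 33.0 CPM in null and 25.7, 35.0 and 34.3 CPM in floxed samples, which overlapped (log2 fold change 0.09 ± 0.12, edgeR, adjusted P = 0.57). Both arms of the line contained CHIR99021, yet the floxed samples had Efnb1 levels above DMSO and below CH of E14 cells, and Efnb2 levels in or above the range of DMSO. Cell line, passage and the 24 h against 48 h of culture differ together here, and which of them goes with the levels cannot be told apart.

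**Figure D3:**
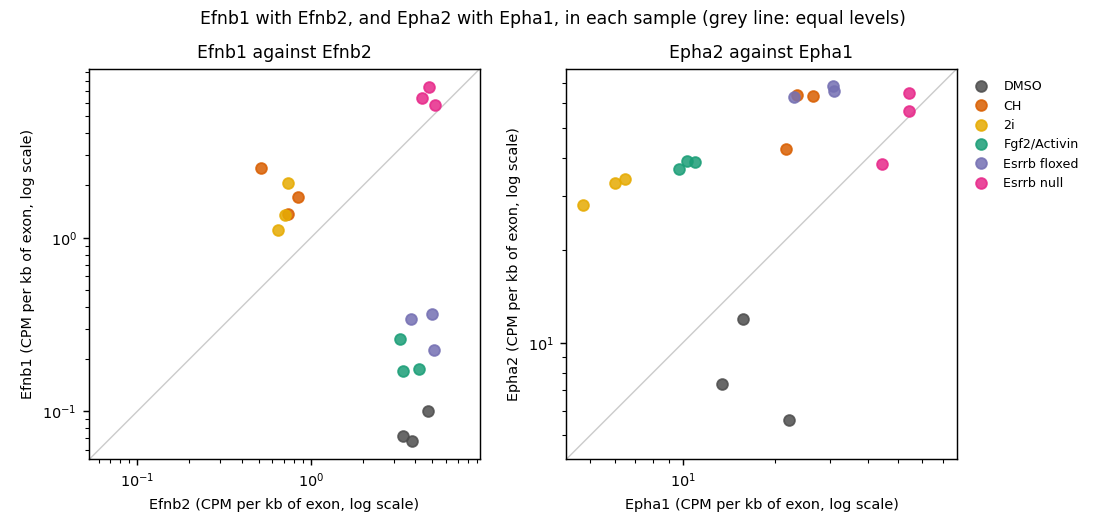
Efnb1 against Efnb2 and Epha2 against Epha1, as CPM per kb of exon on log axes, with a point for each of the 18 samples coloured by group and a grey line where both genes have equal levels. CH and 2i samples lie to the upper left for the ephrins, with Efnb1 above Efnb2, Esrrb null samples lie at the upper right, and the 3 DMSO samples and Esrrb null replicate 1 are below the line for Epha2 against Epha1.

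The make-up of each class was compared on the scale of CPM per kb of exon, over all 22 genes of the family in the table. The summed level of the EphA receptors was 28.1 ± 3.94 CPM per kb in DMSO (mean ± SD, n = 3), 90.2 ± 13.3 in CH, 49.7 ± 2.99 in 2i and 51.1 ± 1.81 in Fgf2/Activin. In the Esrrb line this sum was 105 ± 5.25 in floxed and 112 ± 18.8 in null samples. Epha1 made up 60.5% ± 10.7 of it in DMSO, and Epha2 62.4% ± 4.80 in CH, 63.7% ± 2.83 in 2i and 74.7% ± 0.51 in Fgf2/Activin. The EphB receptors stayed closer together, between 16.4 ± 0.37 CPM per kb in Esrrb floxed and 36.9 ± 2.77 in 2i samples, with Ephb4 as the leading gene at 61.6% to 75.2% of the class in the group means.

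In the ephrin-B class Efnb2 led in the E14 cultures without CHIR99021 and not in those with it. The class summed to 4.85 ± 0.62 CPM per kb in DMSO, 4.40 ± 0.96 in CH, 3.31 ± 0.66 in 2i and 4.70 ± 0.46 in Fgf2/Activin, and the 2i samples were below those of DMSO and Fgf2/Activin. Efnb2 made up 81.8% ± 3.60 of it in DMSO and 16.8% ± 6.39 in CH, and Efnb1 1.65% ± 0.22 in DMSO and 42.1% ± 4.12 in CH. In CH Efnb3 made up 41.1% ± 3.24, close to the share of Efnb1 and above it in replicate 3 (41.4% beside 38.1%). In 2i Efnb1 had 44.9% ± 6.34 and Efnb3 33.6% ± 4.21. In Esrrb null cells the sum was 12.5 ± 0.70 CPM per kb beside 5.92 ± 0.66 in floxed cells, and the share of Efnb1 was 51.9% ± 3.80 beside 5.32% ± 1.59. The leading ephrin-A gene was Efna4 in all 6 groups, with 56.7% to 76.6% of the class in the group means, and Efna5 had at most 6.77% ± 2.13, in DMSO. Of the exon bases of Efna4, 10.5% overlap a gene of the other strand, and the part of reads from that stretch was not tested.

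**Figure D4:**
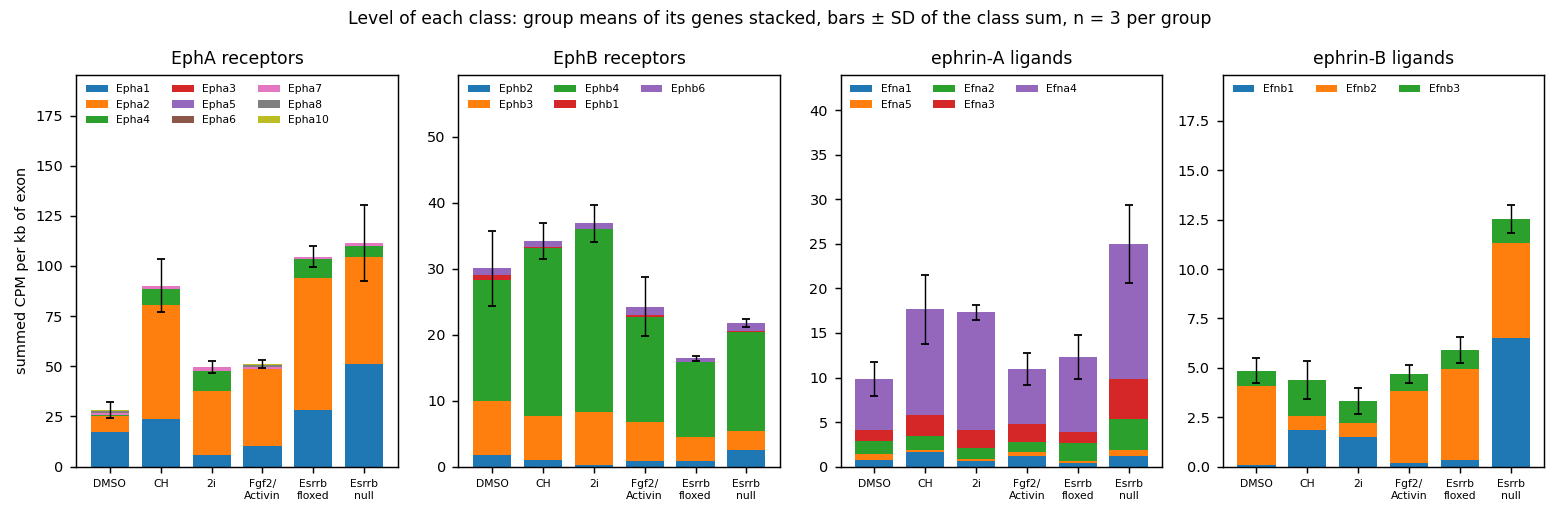
Summed level of the EphA receptors, EphB receptors, ephrin-A ligands and ephrin-B ligands (y axes, CPM per kb of exon) in the 6 groups, with the group mean of each gene stacked in its own colour and bars for the SD of the class sum over 3 samples. The ephrin-B bars of the E14 cultures reach 3.31 to 4.85 CPM per kb, and within them the Efnb2 part shrinks and the Efnb1 and Efnb3 parts grow with CHIR99021, and the Esrrb null bar reaches 12.5 CPM per kb. The ephrin-A bars of the Esrrb line reach 12.3 CPM per kb in floxed and 25.0 in null samples.

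The other 12 genes of the family were also read, since they bind the same partners. In CH, Epha7, Efna4 and Efnb3 were called higher than in DMSO, and Epha8, Epha10 and Ephb1 lower, or 60% of the 10 genes tested, beside 17.7% of all genes. Epha7 rose from a mean of 8.07 CPM to 17.9 CPM, Efna4 from 9.00 to 19.0 CPM and Efnb3 from 2.51 to 5.79 CPM. Ephb1 had 1.55, 6.30 and 8.81 CPM in DMSO and 0.341, 0.653 and 0.999 CPM in CH. Epha7, Efna4, Epha8, Epha10 and Ephb1 were also called between 2i and Fgf2/Activin, the first 2 higher and the others lower, or 50% of the 10 beside 23.5% of all genes. Epha8 held 0, 1 and 2 counts in the 2i samples beside 212, 176 and 181 in Fgf2/Activin. None of the 10 was called by edgeR or DESeq2 between 2i and CH or between Fgf2/Activin and DMSO, where 2 and 1 of them were lower at an unadjusted P value under 0.05 and 0 higher. In Esrrb null cells Epha10, Ephb1, Ephb6 and Efna3 were called higher, or 50% of the 8 tested beside 12.8% of all genes. None was called lower, beside 3.87% of all genes, and none was lower at an unadjusted P value under 0.05. DESeq2 called 3 of the 4, without Epha10. Efna3 had 14.6, 8.52 and 9.53 CPM in null and 3.38, 2.18 and 3.39 CPM in floxed samples, though 14.1% of its exon bases overlap a gene of the other strand, as do 10.5% of those of Efna4. Efna2 reached a mean of 7.44 CPM in null cells and was not called in any comparison. Epha3 and Epha6 did not pass the filter in either set of samples, nor did Epha5 and Epha8 in the Esrrb line, and Epha3, Epha5 and Epha6 stayed below 1 CPM in every group mean.

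Of 40 genes that act in Eph and ephrin signalling, all tested, 3 were called higher and 7 lower in CH against DMSO, or 25% beside the 17.7% of all genes called in this comparison. The 3 were Yes1, a Src family kinase, with a log2 fold change of 1.78 ± 0.15, Stat3, at 1.63 ± 0.26, and Rap1gap, an inhibitor of the GTPase Rap1, at 1.28 ± 0.21. Those called lower were mostly exchange factors and regulators of small GTPases or adaptors. Rin1, a Rab5 exchange factor that acts in the uptake of Epha4, fell from a mean of 16.5 to 2.06 CPM, with a log2 fold change of -2.99 ± 0.25 (edgeR, adjusted P = 4.57e-06). Ngef and Arhgef15, the exchange factors known as ephexins, had -2.14 ± 0.31 and -2.01 ± 0.34, and Vav2, an exchange factor recruited by activated Eph receptors, -1.29 ± 0.12. The adaptor Grb7, the Rac inhibitor Chn2 and Rgs3, a regulator that binds ephrin-B ligands, were the others.

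Between 2i and Fgf2/Activin the 40 genes gave 3 higher (Yes1, Rap1gap and the exchange factor Kalrn) and 7 lower (Rin1, Ngef, Vav2, Vav3, Grb7, Rgs3 and Grip1, a scaffold protein that binds ephrin-B ligands), or 25% beside 23.5% of all genes. Arhgef15 was not among them (log2 fold change -1.17 ± 0.33, edgeR, adjusted P = 0.0117), but was called lower by the fit with the replicate number as a block (edgeR, adjusted P = 4.21e-05) and by DESeq2. Ngef and Rin1 had the most negative log2 fold changes, at -3.27 ± 0.35 and -2.53 ± 0.24. Between 2i and CH, Grip1 was the one gene called, at -1.89 ± 0.31, and between Fgf2/Activin and DMSO none of the 40 was called by edgeR or DESeq2, with 3 higher and 3 lower at an unadjusted P value under 0.05.

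In Esrrb null cells, 5 of the 40 (12.5%) were called higher, beside 12.8% of all genes, and none lower, beside 3.87% of all genes. At an unadjusted P value under 0.05, 11 were lower, and DESeq2 called 1, Yes1, lower. Grip1 rose from a mean of 0.733 to 7.71 CPM, with a log2 fold change of 3.42 ± 0.30 (edgeR, adjusted P = 2.96e-05). Chn2, Rin1 and Rgs3 had 2.24 ± 0.28, 2.15 ± 0.24 and 1.70 ± 0.18. The other was Adam10, the protease that sheds ephrins, at 1.05 ± 0.08. Chn2, Rin1 and Rgs3 are thus genes called lower in CH against DMSO and higher in Esrrb null against Esrrb floxed cells. Markers of other states changed in the same samples. Of the mesendoderm list, with 4 of its 6 genes tested, T, Mixl1 and Evx1 were called higher in both of these comparisons and Eomes was called lower in CH. The neural genes Nes and Neurod1 were called lower in CH. Nes was called higher in Esrrb null cells, and Pax6 and Tubb3 lower. The summed neural list ranged from 37.0 to 58.2 CPM in CH, 136 to 196 in DMSO, 57.4 to 62.5 in Esrrb floxed and 219.7 to 222 in Esrrb null samples, where Nes alone had a mean of 204 CPM. The endothelial list, which could bear on Efnb2 and Ephb4, had Emcn at 0 in every group and Cdh5 at 0 in DMSO and Fgf2/Activin, and was led by Tek in all groups. With 3 of its 6 genes tested, Tek was called lower in CH against DMSO, with means of 5.89 and 15.3 CPM, and Kdr was called lower in Esrrb null cells. Trophoblast Cdx2 was called higher and Ascl2 lower in CH against DMSO, and Cdx2 and Krt7 were called higher in Esrrb null cells. The fibroblast gene Dcn was called lower in CH, and Col1a2 and Dcn higher in Esrrb null cells. Among extra-embryonic endoderm genes, Foxa2 was called higher in CH, Gata4 higher in Esrrb null cells, and Sox7 lower in both. Those fibroblast and endoderm lists summed to at most 6.14 and 4.56 CPM in any sample. The part of these cell states in the levels of Eph receptors and ephrins was not tested.

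The groups can be ordered by the mean CPM of each gene, where neighbours in the order often overlap. For Epha4 the order was 2i, Esrrb floxed and CH, which overlapped from one to the next, then Esrrb null, then DMSO and Fgf2/Activin, which overlapped. For Efnb1 it was Esrrb null, then CH and 2i, which overlapped, then Esrrb floxed and Fgf2/Activin, which overlapped, then DMSO. The ratio of the highest to the lowest group mean was 81.4 for Efnb1 and 34.6 for Epha4. It was 8.89 for Epha1, 8.22 for Ephb2, 7.90 for Epha2 and 6.85 for Efnb2. Efna5, with 5.54, Efna1, with 3.68, Ephb3, with 2.76, and Ephb4, with 2.44, had the narrowest ranges.

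Genes with the most similar pattern were searched among 10518 other genes with a mean of at least 5 CPM over the 18 samples, by the root mean square difference of centred log2(CPM + 1). For Epha4 the nearest were Rasgrp1, a Ras exchange factor, at 0.41, and Notum, an enzyme that inactivates Wnt ligands, at 0.42, where the spread of Epha4 itself was 2.03 on the same scale. For Efnb1 they were Anxa3 at 0.55 and Efemp1 at 0.64, beside a spread of 1.47. For Efnb2 they were Baz1a at 0.34 and Anpep at 0.40, beside 1.14. For Epha1 they were Ccno at 0.30 and Mroh6 at 0.34, beside 1.02. Ephb2 was nearest to Ptpn14 at 0.32 and Zyx at 0.35, beside 0.91. Epha2 was nearest to the pseudogenes Rpl14-ps1 and Gm4149, at 0.49 and 0.53 beside 1.04. Ephb3 was nearest to Wdsub1 at 0.12, beside 0.58, Ephb4 to Abcc10 at 0.15, beside 0.45, Efna1 to Rora at 0.26, beside 0.45, and Efna5 to Wdr81 at 0.19, beside 0.54. Efna1 and Efna5 were themselves below the minimum of 5 CPM, with highest group means of 2.95 and 2.98 CPM, and were compared with 10519 genes. Adding 1 to the CPM narrows differences at such levels, so their spreads and matches are weaker descriptions. All of these are descriptions over 18 samples in 6 groups.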

How the data were processed

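RNA sequencing of 18 samples, 3 in each of 6 groups, was used, and every column of the table belonged to a sample named in the labels. The values are counts. The authors used TopHat2 for alignment to mm10 and HTSeq for counting on the Ensembl genes of GRCm38, without strand although the kit was directional, and deposited the counts as whole numbers with no normalisation. The Ensembl release is not given in the sources used here. Symbols, positions and exon lengths came from GENCODE M21 (GRCm38), which holds 49412 of the 49671 identifiers. Promoter windows are from RefSeq (GRCm38.p6).

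Counts were fitted with edgeR 4.0.16 in R 4.3.3 (limma 3.58.1): TMM scaling, filterByExpr, glmQLFit and glmQLFTest, with 1 coefficient per group. The 12 E14 samples and the 6 samples of the Esrrb line were fitted apart. Thresholds were an adjusted P value under 0.01 over all genes and an absolute log2 fold change above 1, as in the methods of the study, which used DESeq2. Standard errors are the log2 fold change over the square root of F. CPM used TMM factors over all 18 samples. The code was tested on simulated data. Transcripts were compared with blastn 2.17.0, and matplotlib 3.10.9 (Python 3.11.15) was used for figures.

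The members and lists were chosen with earlier results of these data known. All 10 members are described, with the other 12 genes of the family and those of the 40 signalling genes that were called. The labels number the replicates but do not say whether they came from separate cultures, so P values measure the spread between these samples, which may be technical. Same-numbered samples deviated together, with correlations of at least 0.22 in every comparison over the genes tested. The numbers were taken as pairing in the replicate block only. The main fit left this pairing out, so the printed P values and standard errors are unpaired unless the block is named. With the block, adjusted P values of the 10 genes were lower in every comparison, such as 7.94e-09 in place of 0.000332 for Epha1 in the Esrrb line (edgeR). The replicate block was not in the methods of the study and is an alternative. Total counts limit precision for genes with few counts. Other alternatives were DESeq2 size factors, DESeq2 1.42.0, other filters, glmTreat, no minimum fold change, only the samples compared, each replicate left out and, added after seeing the data, replicate 1 of every group left out.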

Additional observations from a re-analysis of the deposited data

How the results depend on the processing

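The log2 fold changes of the 10 genes kept their direction and their side of the thresholds in 650 of the refits, fell below the thresholds in 19, passed them in 7 and changed sign in 6. The sign changes were all in small differences with 1 sample left out: Ephb3 between CH and DMSO (-0.48 to 0.13, with 0.13 without DMSO replicate 1), Efnb2 between 2i and CH (-0.18 to 0.15, with 0.05, 0.15 and 0.03 without 2i replicate 3, CH replicate 2 and CH replicate 3), Epha4 between Fgf2/Activin and DMSO (-0.45 to 0.12) and Efnb2 in the Esrrb line (-0.046 to 0.16). The number of genes called lower in CH against DMSO was 2, with Efna5, under DESeq2's test, the replicate block and without replicate 1 of every group, and 1 to 2 with each replicate left out. With at least 10 counts in every sample, Efnb1 did not pass the filter, which left 2 genes called higher between CH and DMSO and 1 between 2i and Fgf2/Activin. Efna5 did not pass it either, which left 2 genes called lower between 2i and Fgf2/Activin. glmTreat left 1 called lower between 2i and Fgf2/Activin, 1 lower between 2i and CH, 0 higher between Fgf2/Activin and DMSO (Epha2, edgeR glmTreat adjusted P = 0.0104) and 1 higher in Esrrb null cells, since it tests against a log2 fold change of 1. Fitting only the 6 samples compared left 1 lower between 2i and CH and 0 higher between Fgf2/Activin and DMSO, the cause was not tested, and with each replicate left out 1 was lower between 2i and CH. Between Fgf2/Activin and DMSO, 1 gene (Ephb2) was called lower under DESeq2's test and without replicate 1 of every group, and with no minimum fold change 1 (Epha4) was called lower in Esrrb null cells. The replicate block changed no other call of the 10 genes. Over all genes it moved the calls between 2i and CH from 52 higher and 274 lower to 138 and 534, and between Fgf2/Activin and DMSO from 148 and 57 to 275 and 149. glmTreat gave 1 and 46 between 2i and CH.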
